A study of Mus musculus with 4 samples.

Results

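The genes described here encode the receptors for acetylcholine, serotonin, dopamine and noradrenaline, measured in 4 regions of the embryonic mouse brain. They were chosen by symbol: the nicotinic (Chrna, Chrnb, Chrnd, Chrne, Chrng) and muscarinic (Chrm) acetylcholine receptor genes, and the serotonin (Htr), dopamine (Drd) and adrenergic (Adra, Adrb) receptor genes. Of 49 such genes in the RefSeq gene table, 42 had a singly named probe set on the array, among 19938 genes in all. They comprised 16 nicotinic, 5 muscarinic, 14 serotonin, 5 dopamine and 2 adrenergic receptor genes, each with 1 probe set. The other 7 are not analysed here, and the adrenergic family is represented only by Adra1b and Adra2c.

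The tissues were cerebellum, olfactory bulb, pontine nucleus (the hindbrain nucleus that relays cortical input to the cerebellum) and superior colliculus (the visual part of the midbrain roof), the last of these and the olfactory bulb being called the colliculus and the bulb here. They were taken at embryonic day 17.5 from mice of the ICR stock. No treatment or genetic change is named for any group. Each region was hybridised to 1 Affymetrix array with RNA pooled from 13 (cerebellum), 14 (olfactory bulb), 15 (pontine nucleus) or 16 (superior colliculus) mice. With 1 pool per region there is no replicate spread, so the values below carry neither SD nor p-value, and regional differences cannot be told apart from differences between pooled preparations. All 22 marker genes listed for the 4 regions read at least 1 log2 unit above every other array in their own region, by 1.23 to 5.05. They were listed with earlier results of these data known, so this count is no independent check of the dissections. Array medians lay between 8.07 and 8.13. In bulk tissue, fewer cells of a type and less RNA per cell cannot be told apart.

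Acetylcholine acts on nicotinic receptors, which are cation channels assembled from several subunits, and on muscarinic receptors, which act through G proteins. Serotonin, dopamine and noradrenaline act on G protein-coupled receptors, with the serotonin receptor built from Htr3 subunits as the only ion channel among them. Receptors coupled to Gs raise cyclic AMP, those coupled to Gi lower it, and those coupled to Gq activate phospholipase C. The fibres that release these transmitters come mostly from brainstem and basal forebrain nuclei and reach their targets before birth, when several of the receptors influence neuron migration, growth and the first spontaneous activity.

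Levels are log2 signals, and a difference of 1 log2 unit is 2-fold. Signals of different probe sets are not comparable with each other, so a gene is compared only with itself across arrays. Genes were compared when at least 1 array exceeded 8.56, the median of all gene levels, which 10908 genes did. Of the receptor genes, 20 did so and 22 did not. Among those 20, only 6 (Chrm2, Chrna3, Chrna4, Chrnb2, Drd2 and Htr5a) exceeded it on all 4 arrays, and 10 exceeded it on a single array, so a difference was partly built into their selection. Background was gauged from 202 genes of vomeronasal receptors and beta defensins. Their levels had a median of 5.20 and a 95th percentile of 7.33, and 95% of the departures of 1 array from the average of the other 3 lay between -0.32 and 0.35. Where the lower level of a comparison lies at or below 7.33, it cannot be told from background, and the size of the difference is uncertain.

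**Figure D1:**
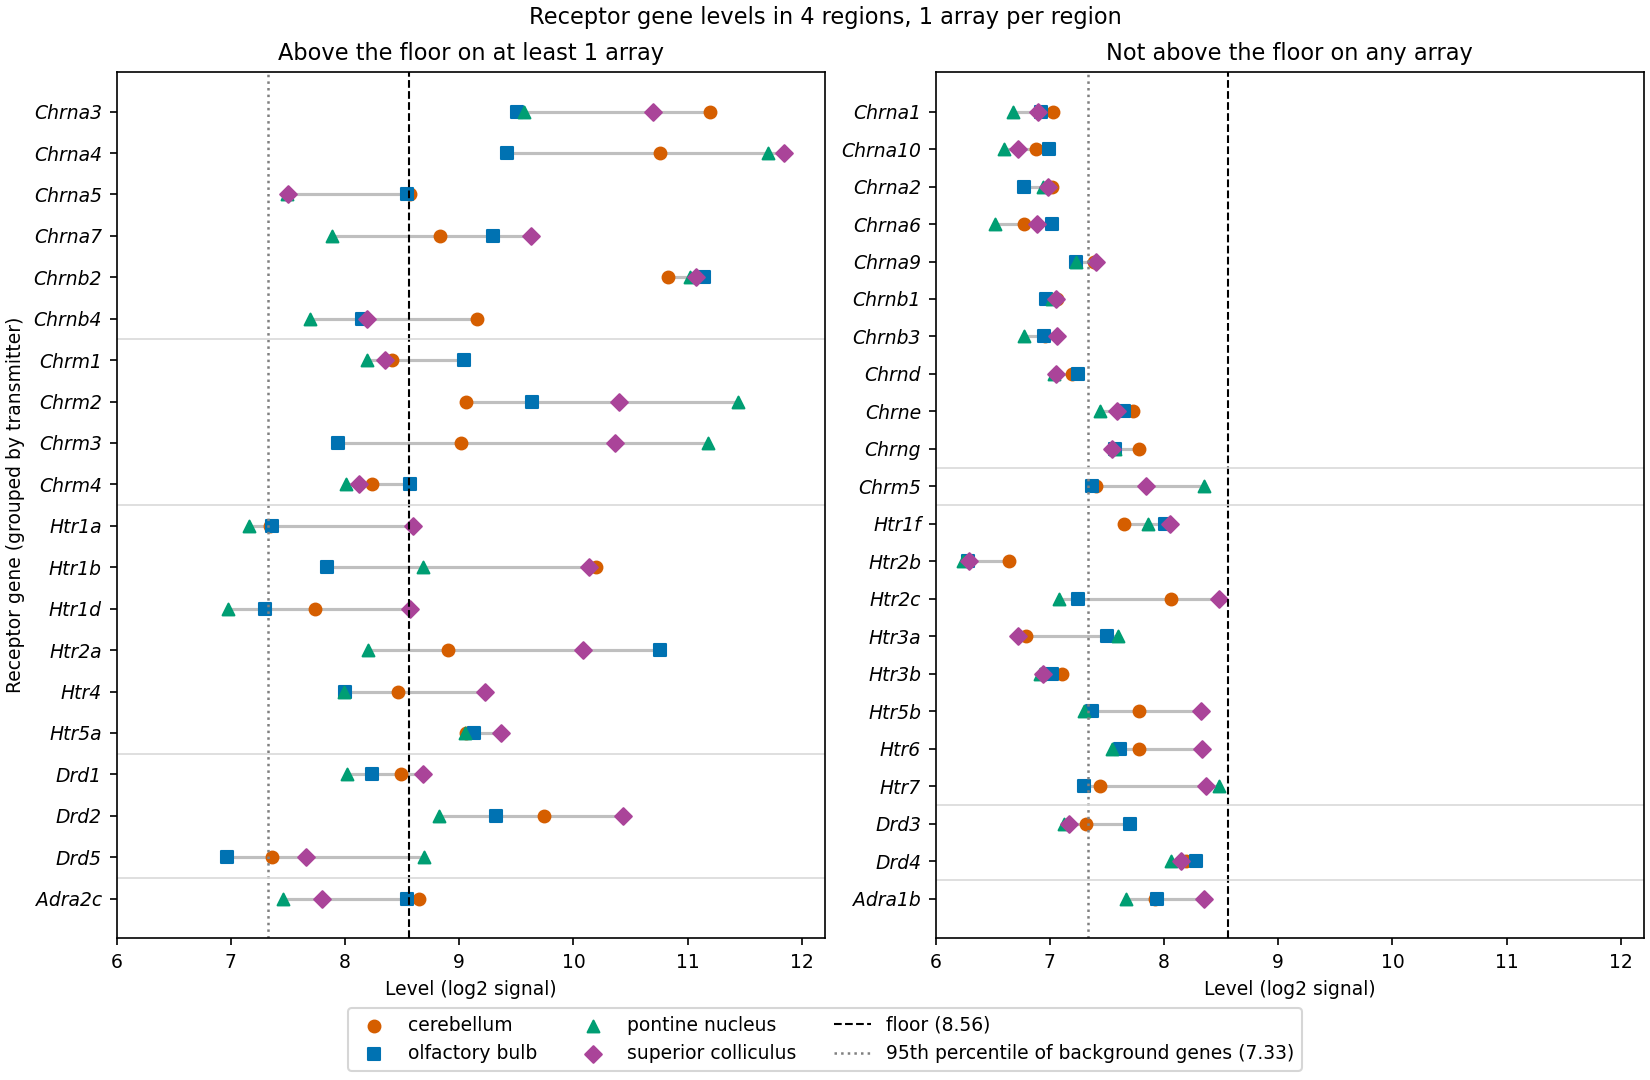
Levels (log2 signal, x axis) of the 42 receptor genes (y axis, grouped by transmitter) on the 4 arrays, 1 point per region; the left panel holds the 20 genes above the floor of 8.56 on at least 1 array and the right panel the 22 others. Chrm3 has the widest spread, with 11.18 in the pontine nucleus against 7.94 in the bulb, and Chrnb1 the narrowest, between 6.97 and 7.06.

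The first comparison asked which receptor genes set 1 region apart from the other 3. Higher meant a reading at least 1 log2 unit above the highest other array, and lower a reading at least 1 log2 unit below the lowest. By this rule 5 of the 20 compared receptor genes were called, against 4.58% of all compared genes. Chrm2 and Drd5 were higher in the pontine nucleus (2 of 20, against 0.798% of all compared genes), and Htr1a was higher in the colliculus (1 of 20, against 0.715%). Drd5 and Htr1a entered the comparison only through the array where they were higher. Chrna4 and Chrm3 were lower in the bulb (2 of 20, against 0.431%). No receptor gene was called higher in the cerebellum (0.605% of all genes) or the bulb (0.972%), and none lower in the cerebellum (0.156%), the pontine nucleus (0.981%) or the colliculus (0.165%). Removing the level floor added no gene to these 5. The nearest gene outside the rule was Chrnb4, higher in the cerebellum by 0.97, followed by Chrna7, lower in the pontine nucleus by 0.94, and Htr1b, lower in the bulb by 0.84. The nearest inside were Drd5 at 1.03 and Chrm2 at 1.04, so the boundary of this short list is narrow.

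Chrna4 and Chrnb2 encode the alpha4 and beta2 subunits that together form the most abundant high-affinity nicotinic receptor of the mammalian brain. Their probe sets gave different regional patterns. Chrna4 (probe set 10490559) read 9.42 in the bulb, against 10.76 in the cerebellum, 11.70 in the pontine nucleus and 11.84 in the colliculus, and was thus 2.53-fold lower in the bulb than in the next lowest region. Between the colliculus and the bulb it differed 5.35-fold. Chrnb2 read 10.83 in the cerebellum, 11.02 in the pontine nucleus, 11.07 in the colliculus and 11.14 in the bulb. Its differences from the average of the other 3 arrays, -0.25 to 0.17, lay within the limits given above for background genes. The sequences of the 250 bases before their annotated starts are shown because these partner subunits differ in regional pattern. They are from RefSeq (build GRCm38.p6), on the minus strand at chr2:181039178-181039427 and at chr3:89764633-89764882, written 5′ to 3′, and capitals mark GC boxes (GGGCGG on either strand), the core recognised by Sp1-type factors.
Chrna4: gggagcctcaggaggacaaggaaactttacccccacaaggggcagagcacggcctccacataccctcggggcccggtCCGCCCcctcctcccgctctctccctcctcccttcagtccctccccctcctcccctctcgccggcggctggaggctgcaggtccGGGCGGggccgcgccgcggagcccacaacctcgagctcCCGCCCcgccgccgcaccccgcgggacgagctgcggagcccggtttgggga
Chrnb2: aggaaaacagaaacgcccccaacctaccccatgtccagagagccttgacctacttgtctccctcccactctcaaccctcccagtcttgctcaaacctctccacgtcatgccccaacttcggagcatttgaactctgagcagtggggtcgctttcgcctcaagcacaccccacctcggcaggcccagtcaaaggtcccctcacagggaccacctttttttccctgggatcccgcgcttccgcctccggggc
The Chrna4 window held 3 GC boxes and a G and C content of 74.4%, and the Chrnb2 window held none and 59.6%. A GC box was present in 32.7% of all 32851 such windows and in 17 of 39 windows of the measured receptor genes (43.6%). E boxes (CANNTG) were found in 66.2% of all windows and in 22 of those 39 (56.4%). The match of letters is a description and was not tested for use by any factor. The 39 windows belong to 34 of the 42 genes, some of which have several annotated starts.

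Chrna3, Chrna5 and Chrnb4 encode the alpha3, alpha5 and beta4 subunits of the ganglionic type of nicotinic receptor and are neighbours on chromosome 9. Chrna3 read 11.20 in the cerebellum, 10.70 in the colliculus, 9.57 in the pontine nucleus and 9.51 in the bulb. It was 3.23-fold higher in the cerebellum than in the bulb. Chrnb4 was likewise highest in the cerebellum, at 9.16, against 8.19 in the colliculus, 8.15 in the bulb and 7.69 in the pontine nucleus. Chrna5, whose product is an accessory subunit, followed another order: it read 8.57 in the cerebellum and 8.54 in the bulb, against 7.50 in the colliculus and 7.49 in the pontine nucleus. The 3 neighbours therefore shared a high reading in the cerebellum, while Chrna3 and Chrna5 differed in which other region was high. The upstream windows of Chrna3 and Chrnb4, the pair that forms a receptor and peaked in the same region, lie on the minus strand at chr9:55026563-55026812 and chr9:55048545-55048794 and are shown in the same way.
Chrna3: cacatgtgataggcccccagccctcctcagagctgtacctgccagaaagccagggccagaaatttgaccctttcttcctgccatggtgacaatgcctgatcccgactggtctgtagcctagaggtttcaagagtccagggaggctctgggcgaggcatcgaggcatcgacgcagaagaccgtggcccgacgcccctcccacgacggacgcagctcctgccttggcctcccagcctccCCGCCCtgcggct
Chrnb4: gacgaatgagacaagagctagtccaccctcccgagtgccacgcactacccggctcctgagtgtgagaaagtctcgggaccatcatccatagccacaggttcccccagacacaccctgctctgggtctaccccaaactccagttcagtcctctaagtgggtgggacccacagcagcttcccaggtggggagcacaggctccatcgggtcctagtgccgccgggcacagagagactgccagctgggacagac
The Chrna3 window held 1 GC box and the Chrnb4 window none, and both held 2 E boxes.

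Chrna7 encodes the subunit of the homomeric alpha7 receptor, which is highly permeable to calcium. It read 7.89 in the pontine nucleus, against 9.63 in the colliculus, 9.30 in the bulb and 8.83 in the cerebellum. It was 3.34-fold higher in the colliculus than in the pontine nucleus. The remaining neuronal subunit genes, Chrna2, Chrna6, Chrna9, Chrna10 and Chrnb3, lay between 6.52 and 7.40 with ranges of at most 0.50, at or near the level of the background genes. Chrna6 and Chrnb3, which are neighbours on chromosome 8 and contribute to receptors on midbrain dopamine neurons, read at most 7.02 and 7.06. The 5 subunit genes of the muscle receptor (Chrna1, Chrnb1, Chrnd, Chrne and Chrng) lay between 6.68 and 7.78 and differed by at most 0.35 between arrays. In the cerebellum all 5 exceeded the average of the other 3 arrays, as 53.1% of all genes did. The median difference, 0.17, lay within the limits given above for background genes. Of 8 skeletal muscle marker genes, 6 also read highest there, as did 28.7% of all genes. Among all genes above the floor these shares were 39% and 17.9%, so they were larger among genes below it. All 5 subunit genes and all but 2 of the 8 markers lay below the floor. The summed linear signal of the 8 markers was 2397 in the cerebellum, against 2067 in the bulb, 1970 in the colliculus and 1956 in the pontine nucleus. The muscle regulators Myog and Myod1 read 7.54 and 7.99 in the cerebellum, below the floor. The part of muscle tissue in that small difference was not tested.

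Several genes that assist nicotinic receptors also varied between regions. Of 14 measured accessory genes, 10 lay above the floor and 3 of those passed the size rule in some region (30%, against 4.58% of all compared genes). Lypd1 and Lypd6, which encode surface proteins of the Ly6 family that modulate nicotinic receptors, were lower in the pontine nucleus: Lypd1 read 8.87 there against 10.32 to 11.42 elsewhere, and Lypd6 read 8.37 there against 9.85 to 10.39. Their relative Lypd6b was higher in the colliculus, at 9.73 against at most 7.84. Tmem35a, which encodes the chaperone of alpha7 assembly, read 10.57 in the cerebellum and 11.19 to 11.49 in the other regions. Ric3, another chaperone gene, read 8.41 to 8.86.

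Chrm2 and Chrm3 had the widest regional differences of the muscarinic receptor genes. Chrm2 encodes the M2 receptor, which couples to Gi and on cholinergic terminals acts as an autoreceptor. It read 11.44 in the pontine nucleus, against 10.40 in the colliculus, 9.64 in the bulb and 9.06 in the cerebellum. It was 2.06-fold higher in the pontine nucleus than in the next region and 5.21-fold higher than in the cerebellum. Chrm3 encodes the Gq-coupled M3 receptor. It read 7.94 in the bulb, against 9.02 in the cerebellum, 10.36 in the colliculus and 11.18 in the pontine nucleus, and differed 9.45-fold between the pontine nucleus and the bulb. Both genes were high in the pontine nucleus and second in the colliculus, although they couple to different G proteins. Their upstream windows are shown because the pair shared the top regions; that of Chrm2 is on the plus strand at chr6:36387834-36388083 and that of Chrm3 on the minus strand at chr13:10360804-10361053.
Chrm2: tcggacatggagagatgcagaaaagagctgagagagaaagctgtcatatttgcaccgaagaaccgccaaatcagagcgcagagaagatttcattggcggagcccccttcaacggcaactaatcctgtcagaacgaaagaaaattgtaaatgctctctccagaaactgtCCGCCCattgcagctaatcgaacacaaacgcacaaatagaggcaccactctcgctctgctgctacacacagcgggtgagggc
Chrm3: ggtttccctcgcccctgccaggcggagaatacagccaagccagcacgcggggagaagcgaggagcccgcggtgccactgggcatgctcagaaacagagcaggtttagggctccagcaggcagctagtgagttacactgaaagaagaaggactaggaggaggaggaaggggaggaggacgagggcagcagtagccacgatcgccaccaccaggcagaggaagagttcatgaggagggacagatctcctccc
Chrm2 had 1 GC box and a G and C content of 50%, and Chrm3 had none and 61.2%, with no E box in either window.

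Chrm5, the gene of the M5 receptor, shared the direction at low level, with 8.35 in the pontine nucleus, 7.84 in the colliculus, 7.40 in the cerebellum and 7.37 in the bulb. Chrm1 and Chrm4, the receptor genes that predominate in the adult forebrain, ran the other way. Chrm1 read 9.04 in the bulb, against 8.41 in the cerebellum, 8.35 in the colliculus and 8.19 in the pontine nucleus. Chrm4 read 8.57 in the bulb and 8.01 to 8.24 in the other regions. Over the 5 muscarinic genes the median difference from the average of the other 3 arrays was 0.81 in the pontine nucleus, 0.13 in the colliculus, -0.45 in the cerebellum and -0.49 in the bulb. Over the alternative settings the median ran from 0.51 to 1.91 in the pontine nucleus, from -1.12 to -0.45 in the cerebellum and from -1.45 to -0.11 in the bulb. In the colliculus it ran from 0.10 to 0.67 but was -0.69 against the highest of the other arrays. For all 19938 genes the corresponding medians were -0.04, -0.01, 0.02 and 0.01.

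The pontine array was also the one with the highest signals of several genes of cholinergic and serotonergic neurons. The choline transporter gene Slc5a7 read 10.43 there against at most 7.84, the vesicular acetylcholine transporter gene Slc18a3 9.77 against at most 8.12, and the serotonin transporter gene Slc6a4 8.85 against at most 7.45. Tph2, the gene of neuronal serotonin synthesis, read 8.19 there, below the floor, and at most 6.59 elsewhere. Chat, the gene of acetylcholine synthesis, read only 7.49 there. Of 19 measured genes of transmitter synthesis, transport and breakdown, 7 were highest on that array, as were 22.6% of all genes. Others ran the opposite way. The acetylcholinesterase gene Ache passed the size rule as higher in the colliculus (10.33) and was lowest in the pontine nucleus (8.57). Maoa (8.65) and Maob (7.11) were also lowest in the pontine nucleus. The list's summed linear signal was 9978 there, against 9417 in the bulb, 6845 in the colliculus and 6482 in the cerebellum. The largest term of the pontine sum was Slc29a4, at 11.83 there and 11.15 to 11.24 elsewhere, so the sum does not gauge such neurons. The part of such neurons in the pontine readings of Chrm2, Chrm3, Chrm5 and Drd5 was not tested.

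**Figure D2:**
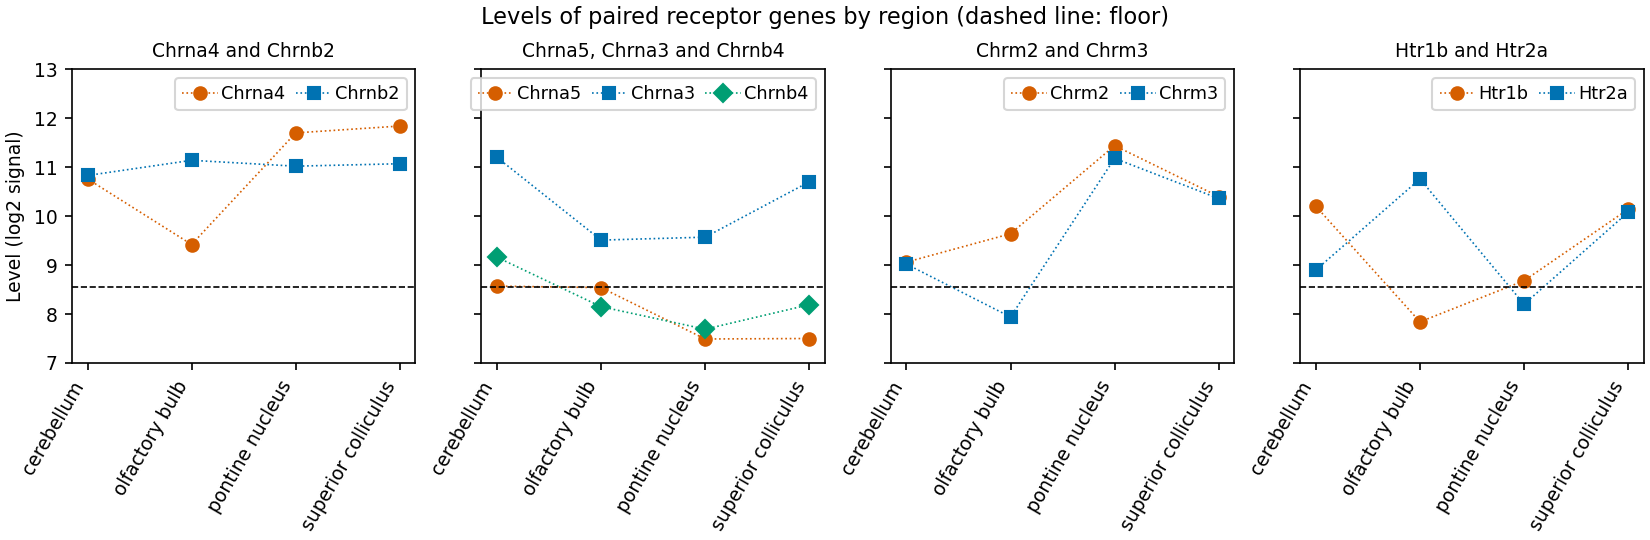
Levels (log2 signal, y axis) of 9 receptor genes by region (x axis), 1 array each, with thin dotted lines joining the points of a gene and a dashed line at the floor of 8.56. Chrna4 drops to 9.42 in the bulb while Chrnb2 stays between 10.83 and 11.14; Chrm2 and Chrm3 both peak in the pontine nucleus; Htr1b and Htr2a have opposite readings in the bulb.

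Serotonin receptor genes were mostly high in the colliculus and low in the pontine nucleus and the bulb. Of the 14, 8 read highest in the colliculus (against 21.1% of all genes) and 10 lowest in the pontine nucleus (against 32.7%). Their median difference from the average of the other 3 arrays was 0.74 in the colliculus, 0.00 in the cerebellum, -0.31 in the bulb and -0.45 in the pontine nucleus. Leaving out the ion channel genes Htr3a and Htr3b, 11 of 12 exceeded the average of the other 3 arrays in the colliculus (48% of all genes did) and 11 of 12 lay below it in the pontine nucleus (57.8% of all genes).

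The Htr1 genes encode Gi-coupled receptors, several of which act as autoreceptors on serotonin neurons or on axon terminals. Htr1a read 8.60 in the colliculus, against 7.16 in the pontine nucleus, 7.34 in the cerebellum and 7.36 in the bulb, a difference of 2.36-fold from the next region. It exceeded the floor only in the colliculus, and the other arrays were at or close to the background limit. Htr1d had a similar order, with 8.57 in the colliculus, 7.74 in the cerebellum, 7.30 in the bulb and 6.98 in the pontine nucleus. Htr1b, the gene of the main terminal autoreceptor, was high in both the cerebellum (10.20) and the colliculus (10.14), against 8.68 in the pontine nucleus and 7.84 in the bulb. Its cerebellar and collicular readings differed by only 0.06, while cerebellum and bulb differed 5.13-fold. Htr1f varied little, between 7.65 and 8.05. Thus Htr1a and Htr1d read highest in the colliculus, and Htr1b shared its high reading between colliculus and cerebellum.

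Htr2a encodes the Gq-coupled receptor at which classical psychedelic drugs act. It read 10.76 in the bulb and 10.08 in the colliculus, against 8.20 in the pontine nucleus and 8.90 in the cerebellum. It was 5.90-fold higher in the bulb than in the pontine nucleus, and Htr1b, in contrast, had its lowest reading in the bulb. Htr2c, another Gq-coupled receptor gene, read 8.48 in the colliculus, 8.06 in the cerebellum, 7.25 in the bulb and 7.08 in the pontine nucleus. The choroid plexus is a known site of strong Htr2c expression, and its 6 measured marker genes, like Htr2c itself, lay below the floor on every array. Their summed linear signal was 897 in the colliculus, 953 in the cerebellum, 855 in the pontine nucleus and 1038 in the bulb. Ttr, the defining transcript of that tissue, read 6.77 in the colliculus and 7.35 in the cerebellum. The part of choroid plexus in the Htr2c readings was not tested. Htr2b stayed between 6.24 and 6.64.

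Among the receptors that raise cyclic AMP, Htr4 read 9.23 in the colliculus, against 8.46 in the cerebellum, 8.00 in the bulb and 7.99 in the pontine nucleus. Htr6 read 8.33 in the colliculus and 7.54 to 7.78 in the other regions. Htr7 departed from this order: it read 8.48 in the pontine nucleus and 8.37 in the colliculus, against 7.44 in the cerebellum and 7.30 in the bulb. Htr5a was nearly level across regions, between 9.05 and 9.37, and Htr5b read 8.32 in the colliculus, 7.78 in the cerebellum, 7.37 in the bulb and 7.30 in the pontine nucleus. The channel subunit gene Htr3a also departed from it, with 7.60 in the pontine nucleus and 7.50 in the bulb against 6.79 in the cerebellum and 6.72 in the colliculus. Its neighbour on chromosome 9, Htr3b, lay between 6.91 and 7.11.

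**Figure D3:**
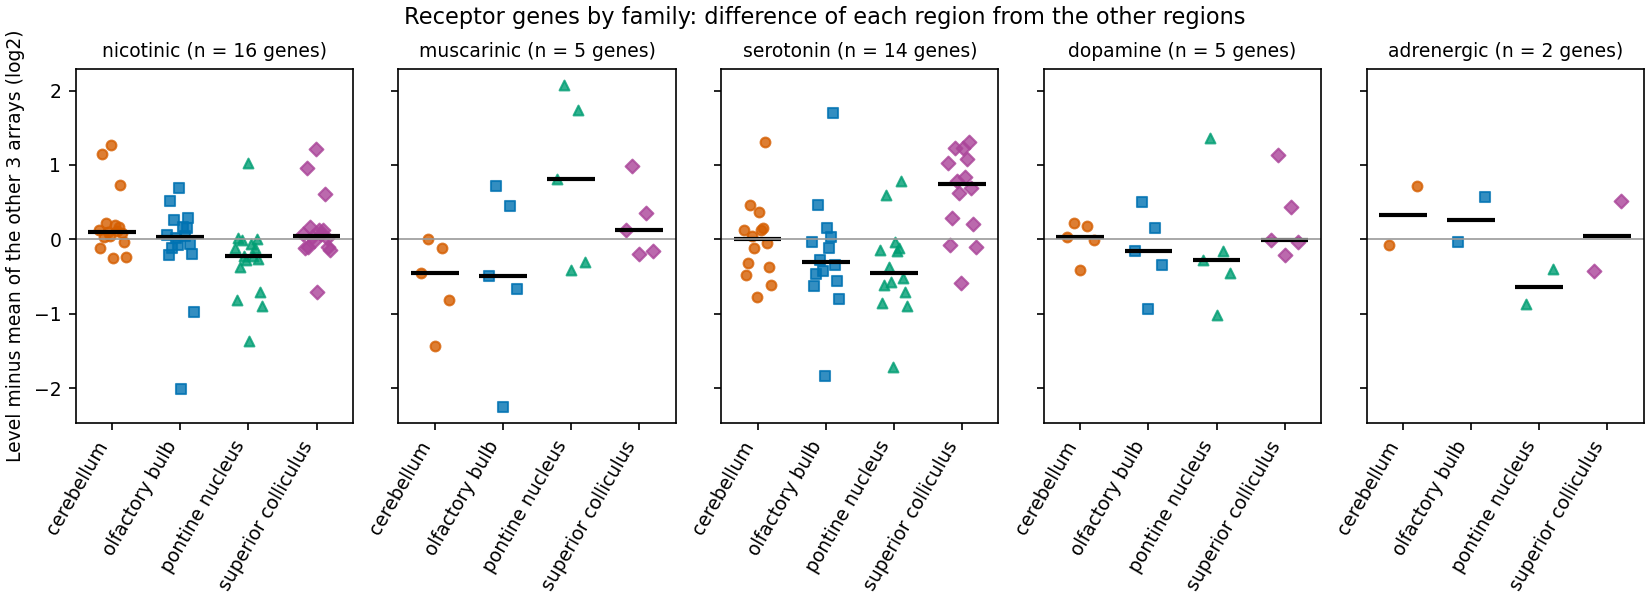
Difference of each receptor gene's level from the mean of the other 3 arrays (log2, y axis) in each region (x axis), by receptor family, with 1 point per gene and a black bar at the family median. The serotonin median lies at 0.74 in the colliculus and -0.45 in the pontine nucleus, and the muscarinic median at 0.81 in the pontine nucleus.

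Drd2 was the dopamine receptor gene that lay above the floor on every array. It encodes the Gi-coupled D2 receptor, which also serves as the autoreceptor of dopamine neurons. It read 10.43 in the colliculus, 9.74 in the cerebellum, 9.32 in the bulb and 8.82 in the pontine nucleus, a span of 3.05-fold. Drd5, the gene of the Gs-coupled D5 receptor, was the only dopamine receptor gene highest in the pontine nucleus, at 8.69 against 7.66 in the colliculus, 7.36 in the cerebellum and 6.97 in the bulb. The difference of 2.04-fold from the next region fell just short of the rule when the arrays were rescaled (0.99 log2 units after quantile normalization). Drd1, the other Gs-coupled member, read 8.68 in the colliculus, 8.49 in the cerebellum, 8.24 in the bulb and 8.02 in the pontine nucleus. Drd3 and Drd4 had their highest readings in the bulb, at 7.70 and 8.28, with ranges of 0.58 and 0.22. Th, the gene of the first enzyme of dopamine synthesis, read 11.33 in the bulb, where dopaminergic interneurons reside, against at most 9.48 elsewhere. None of the 5 dopamine receptor genes passed the size rule as higher in the bulb.

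Of the adrenergic genes, Adra2c encodes a Gi-coupled alpha2 receptor that acts as a presynaptic brake on noradrenaline release. It read 8.65 in the cerebellum and 8.54 in the bulb, against 7.80 in the colliculus and 7.46 in the pontine nucleus. Cerebellum and pontine nucleus differed 2.28-fold. Adra1b, a Gq-coupled receptor gene, read 8.35 in the colliculus and 7.67 to 7.94 in the other regions. Both were lowest in the pontine nucleus.

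The second comparison took the regions in pairs. The superior colliculus and the pontine nucleus gave the most differences: 10 of the 20 compared genes differed by at least 1 log2 unit, against 5.84% of all compared genes. Of these, 8 were higher in the colliculus (Chrna3, Chrna7, Drd2, Htr1a, Htr1b, Htr1d, Htr2a and Htr4) and 2 in the pontine nucleus (Chrm2 and Drd5). Between the colliculus and the bulb 9 genes differed (5.67% of all genes): 8 were higher in the colliculus (Chrm3, Chrna3, Chrna4, Drd2, Htr1a, Htr1b, Htr1d and Htr4), and Chrna5 was higher in the bulb. Between the pontine nucleus and the bulb 8 differed (7.76% of all genes), with Chrm2, Chrm3, Chrna4 and Drd5 higher in the pontine nucleus and Adra2c, Chrna5, Chrna7 and Htr2a higher in the bulb.

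Between the cerebellum and the pontine nucleus 8 genes differed (6.37% of all genes). Adra2c, Chrna3, Chrna5, Chrnb4 and Htr1b were higher in the cerebellum, and Chrm2, Chrm3 and Drd5 in the pontine nucleus. Between the cerebellum and the bulb 6 differed (4.52% of all genes), with Chrm3, Chrna3, Chrna4, Chrnb4 and Htr1b higher in the cerebellum and Htr2a in the bulb. Between the colliculus and the cerebellum 6 differed (5.71% of all genes), with Chrm2, Chrm3, Chrna4, Htr1a and Htr2a higher in the colliculus and Chrna5 in the cerebellum. Because 10 of the 20 genes passed the floor on a single array, the pairs were also counted over all 42 genes with no floor. The colliculus differed from the pontine nucleus for 12 genes (28.6%), from the bulb for 11 (26.2%) and from the cerebellum for 6 (14.3%). The pontine nucleus differed from the bulb and from the cerebellum for 9 each (21.4%), and the cerebellum from the bulb for 6 (14.3%). Shares of all genes without a floor were not counted by pair. A wider measure took the whole range: the highest and the lowest array lay at least 1 log2 unit apart for 18 of 42 receptor genes (42.9%), against 9.33% of all 19938 genes. The median range over the arrays was 0.82 for the receptor genes and 0.32 for all genes. Of the 42, 15 had a range under 0.5. A range of at least 2 log2 units was found for Chrm2, Chrm3, Chrna4, Htr1b and Htr2a.

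The pontine nucleus gave the lowest reading of most receptor genes. It was lowest for 27 of 42 (64.3%), against 32.7% of all genes, and highest for 6 (14.3%, against 22.6%). Many of the lowest readings were close to the next region. Their differences from the next lowest array ran from -0.01 (Chrna5, Chrnd, Htr4 and Htr5a) to -0.94 (Chrna7), and none reached the size rule. The superior colliculus was highest for 15 (35.7%, against 21.1%) and lowest for 2, namely Chrng and Htr3a (4.76%, against 21.7%). The cerebellum was highest for 12 (28.6%, against 28.7%) and lowest for 3 (7.14%, against 21.5%), and the bulb was highest for 9 (21.4%, against 24.3%) and lowest for 9 (21.4%, against 20.5%). The low pontine readings were present among the receptor genes above the floor (13 of 20, against 26% of all genes above it). Among those below it 14 of 22 were lowest in the pontine nucleus, for which no matching share of all genes was taken. That share must exceed 32.7%, since the share above the floor was 26%. The median pontine difference of the receptor genes from the average of the other 3 arrays was -0.59 above the floor and -0.15 below it. The value of -0.15 lies within the limits given above for background genes. The 6 genes highest in the pontine nucleus were Chrm2, Chrm3, Chrm5, Drd5, Htr3a and Htr7.

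**Figure D4:**
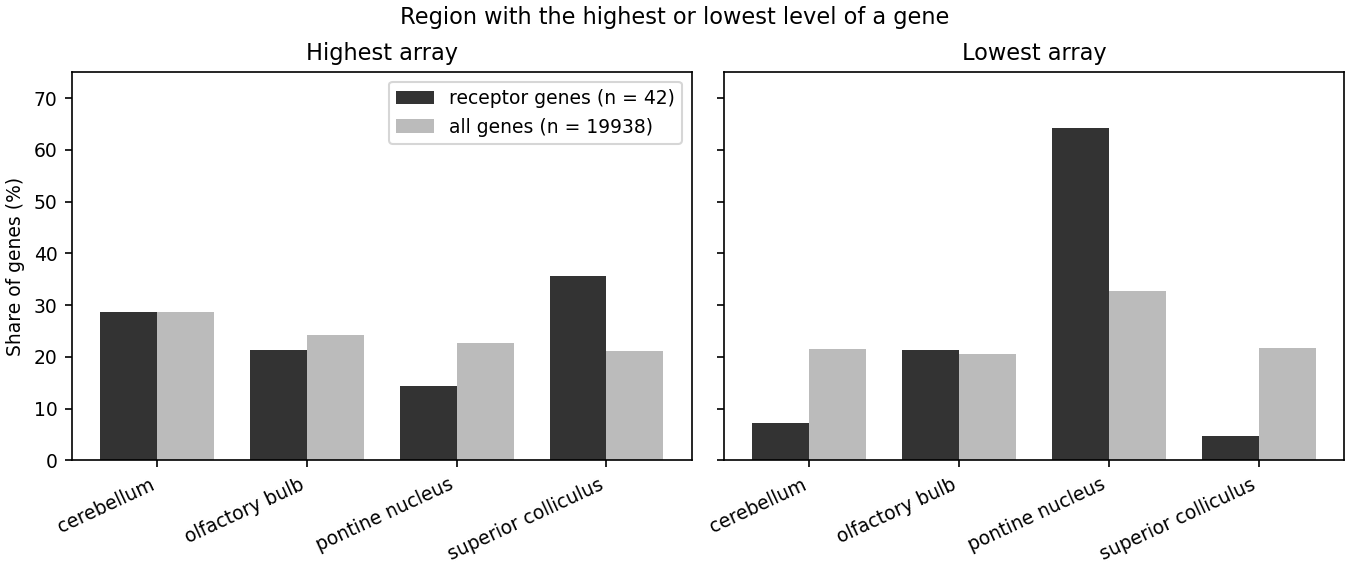
Share of genes (y axis, %) whose highest (left) or lowest (right) level lies in each region (x axis), for the 42 receptor genes (dark bars) and for all 19938 genes (light bars); ties are left out. The pontine nucleus holds the lowest level of 64.3% of receptor genes, against 32.7% of all genes.

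Grouped by coupling, each class of G protein-coupled receptor had a median above 0 in the colliculus and below 0 in the pontine nucleus. Each class contains serotonin receptor genes described above, so these medians are not separate from the serotonin pattern. Htr5a and Htr5b, whose coupling is less settled, were not placed in a class. The 7 Gq-coupled receptor genes had a median difference of 0.51 in the colliculus and -0.40 in the pontine nucleus. The 10 Gi-coupled genes had 0.28 and -0.45 in those regions, and the 5 Gs-coupled genes 0.63 and -0.37. Of the Gi-coupled genes outside the Htr1 group, Drd2 (1.14) and Chrm2 (0.35) lay above 0 in the colliculus. Adra2c (-0.42), Drd3 (-0.21), Chrm4 (-0.15) and Drd4 (-0.03) lay below 0 there. The 11 neuronal nicotinic subunit genes had smaller medians, at 0.12 in the colliculus and -0.26 in the pontine nucleus. The medians of 0.28, 0.12 and -0.26 lie within the limits given above for background genes. Over all genes the medians were -0.01 and -0.04. Within each coupling class at least 1 gene read highest in the pontine nucleus, such as Chrm3 and Chrm5 (Gq), Chrm2 (Gi), and Drd5 and Htr7 (Gs).

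Genes of the receptors' signalling partners were counted in the same way. Of 53 measured, 40 lay above the floor and 5 of those passed the size rule in some region (12.5%, against 4.58% of all compared genes). None of 11 measured G protein alpha subunit genes, 4 phospholipase C beta genes or 6 receptor kinase and arrestin genes passed the size rule in any region. Gnal, which encodes the Gs-like subunit Golf, read 11.73 in the colliculus against at most 10.88. Of 9 adenylyl cyclase genes, Adcy2 and Adcy8 were lower in the pontine nucleus: Adcy2 read 7.72 there against 9.13 to 10.11, and Adcy8 read 8.03 there against 9.64 to 10.12. Of 20 genes of RGS proteins, which shorten G protein signals, 3 passed the rule. Rgs4 was higher in the cerebellum, at 10.35 against at most 9.16, Rgs8 higher in the colliculus, at 11.10 against at most 10.02, and Rgs13 lower in the colliculus, at 6.91 against at least 8.18. Ppp1r1b, which encodes the dopamine-regulated phosphatase inhibitor DARPP-32, stayed between 8.18 and 8.38. Of 30 measured markers of muscle, choroid plexus, microglia, vessels and meninges, 12 lay above the floor and 1 of those passed the rule (8.33%, against 4.58% of all compared genes). It was the meningeal gene Dcn, which read 10.59 in the bulb against at most 8.65. The 4 meningeal genes all read highest in the bulb, as did 24.3% of all genes. Lum read at most 6.04, below the background limit. Col1a1 and Col1a2 read 9.07 and 9.23 in the bulb, against at most 8.70 and 8.89 elsewhere. The part of meninges in the bulb readings of the receptor genes was not tested.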

How the data were processed

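Total RNA of 4 pooled regions was labelled as sense-strand cDNA and hybridised to 4 Affymetrix arrays, per the labels' protocols. The authors deposited 1 log2 value per probe set and array, made with Affymetrix Expression Console per the submitters' processing notes. Not given in the sources used here are its version, summarisation, background correction, scaling and genome build. The log2 scale was inferred from the range of 2.43 to 14.57, and arrays were taken as already scaled, which can hide differences in total RNA between regions.

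Probe sets were named through the array's annotation table of 2016. Of 35556 probe sets, 21789 had 1 symbol. A gene with several took the one with the highest mean, and each receptor gene had 1. No test was possible with single arrays, and the number of arrays limits the precision. Genes entered the comparison when at least 1 array exceeded the 50th percentile over all genes. All receptor genes past the size rule are named; the others are given by family, with values or ranges. The members, lists and rules were chosen with earlier results of these data known. Alternatives were no floor, floors at the 75th percentile and at the background genes' 95th percentile, quantile normalization, mean of probe sets, 2 log2 units, another comparator and, added after seeing the data, median centring and, for family medians, the 50th percentile floor. Promoter windows and gene neighbours came from RefSeq (GRCm38.p6). Python 3.11.15, NumPy 2.4.6, pandas 2.3.3 and Matplotlib 3.10.9 were used.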

Additional observations from a re-analysis of the deposited data

How the results depend on the processing

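Of the 5 called genes, Chrm3, Chrna4, Chrm2 and Htr1a passed the 1 log2 unit rule under both rescalings, but Chrm2 did so narrowly (1.01 after quantile normalization and 1.0 after median centring), and Drd5 reached 0.99 under each, so that 1 gene was called higher in the pontine nucleus. A floor at the 75th percentile also gave 1, with 0 higher in the superior colliculus, and the pairwise differences over the 6 pairs numbered 27 instead of 47, since fewer genes were compared. At 2 log2 units no gene was called in any region (0 lower in the olfactory bulb, 0 higher in the pontine nucleus, 0 higher in the superior colliculus), and 9 pairwise differences were left. Against the mean of the other arrays 6 genes were higher in the colliculus, 4 in the pontine nucleus, 3 in the cerebellum and 1 in the bulb, and 3 were lower in the pontine nucleus, 3 in the bulb and 1 in the cerebellum. Shares of all compared genes under this looser rule are not given, so these counts cannot be set against the shares above. Removing the floor, or lowering it to the background percentile, left the 5 called genes as they were and gave 53 pairwise differences each. Averaging probe sets could not change a receptor level, since each receptor gene had 1 probe set.

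The pontine nucleus was lowest for 27 to 30 receptor genes and the superior colliculus highest for 15 to 18 under the rescalings. The serotonin median in the superior colliculus stayed between 0.14 and 1.16 over its alternatives, and that in the pontine nucleus between -1.21 and -0.45. The nicotinic median in the pontine nucleus, -0.22, was 0.01 among genes past the 75th percentile floor. No paired analysis was possible because each region has 1 array. Signals near the background level limit what can be said of the 22 genes below the floor.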
